A study of Mus musculus with 2 samples.

Results

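Interferon-stimulated genes are the genes that cells switch on when an interferon binds its receptor. Here they were represented by 35 genes, which were picked out by symbol from the 37309 genes of the deposited table, 22379 of them protein-coding. They were grouped by role into 23 type I effectors, 3 sensors of viral RNA, 4 transcription factors and 5 interferon-gamma GTPases. The genes were chosen by name with the ratio between these libraries already known, so their ratios are given as a description and were not tested.

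The libraries came from intestinal subepithelial myofibroblasts (ISEMFs), contractile fibroblast-like cells that lie beneath the intestinal epithelium. One library was made from supportive ISEMFs of neonatal C57BL/6 mice, isolated at 5 days of age. The other was made from non-supportive ISEMFs of adult C57BL/6 mice, isolated at 2 months of age. Both populations were wild-type cells grown out of the small intestine in the same medium with serum, insulin, transferrin and EGF. No interferon or virus is named in either label or in the culture methods, and the age of the mice differed together with the population. The number of mice behind each culture and the passage at which RNA was taken are not given in the sources used here, although the deposited names attach a different number after the letter P to each library, with no explanation.

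There was 1 library per population, so no difference has a replicate check. The intervals given are 95% exact Clopper-Pearson intervals of the reads, carried over to the ratio, and cover counting error only. The supportive library held 50674472 reads on genes and the non-supportive one 49615497. Levels are in RPKM, reads per kilobase of exon scaled to the size of the library, so levels can be compared between genes. Log2 ratios are of supportive over non-supportive ISEMFs after 0.1 was added to each RPKM, so a difference between low levels is understated. Acta2 (α-SMA) and Vim, the defining genes of myofibroblasts, had RPKM levels of 908 and 325 in supportive ISEMFs and of 1410 and 407 in non-supportive ISEMFs. The level of Des was 0.575 and 3.40. Of the other myofibroblast markers Col1a1 (317 against 288) and Tagln (206 against 360) were within 2-fold, while Myh11 (26.3 against 108) and Cnn1 (78.6 against 187), genes of the contractile apparatus, were lower in supportive ISEMFs and Pdgfrb (28.1 against 7.67), a receptor of fibroblasts and pericytes, was higher. The part of these differences in the results below was not tested.

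Type I interferons (IFN-α and IFN-β) bind the receptor of Ifnar1 and Ifnar2, whose kinases Jak1 and Tyk2 phosphorylate factors of the STAT family. STAT2 and IRF9 are subunits of the factor ISGF3, which binds the interferon-stimulated response element (ISRE) in promoters. Interferon-gamma instead acts through the gamma-activated site (GAS). Proteins of the genes that follow bring about RNA decay, block translation, hold virus at the cell surface or attack the vacuole of a parasite. In the gut wall they take part in the defence against enteric viruses and intracellular microbes.

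The promoters are shown first because their letters were not used in choosing the members. Genes picked as interferon-stimulated can nevertheless be expected to hold the ISRE letters. Promoter windows of 250 bases before to 50 bases after the start were taken from RefSeq (GRCm38.p6, a later build than the mm9 of the counts) and matched by symbol for 25 of the 35 genes. Oas2, Mx1, Mx2, Usp18, Rtp4, Zbp1, Parp9, Parp14, Dhx58 and Iigp1 were not matched. Ifit2, Irf1, Irf9 and Gbp3 had 2 windows each, and a match in either one counted for the gene. The ISRE letters searched were GAAANNGAAA, or TTTCNNTTTC on the other strand, and the GAS letters were TTCNNNGAA, which read the same on both strands. Each line gives the 170 bases before the start, 5′ to 3′ along the gene, with the matches in capitals.

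The first set is shown because these effectors were more than 4-fold higher in supportive ISEMFs and differ in the letters they hold. It has Isg15, the ubiquitin-like modifier, and Ifit1 and Ifit3, of the Ifit family. It also has Bst2, the tether that holds budding virus at the membrane, and Oasl2, of the OAS family.
Isg15, chr4:156200819-156200988, minus strand: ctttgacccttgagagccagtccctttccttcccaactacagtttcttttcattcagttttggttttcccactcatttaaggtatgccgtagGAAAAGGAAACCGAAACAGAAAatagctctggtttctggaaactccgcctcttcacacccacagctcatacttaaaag
Ifit1, chr19:34640719-34640888, plus strand: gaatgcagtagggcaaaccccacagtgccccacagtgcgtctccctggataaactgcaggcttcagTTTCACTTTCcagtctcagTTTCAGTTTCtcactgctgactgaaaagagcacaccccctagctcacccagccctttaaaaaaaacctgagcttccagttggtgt
Ifit3, chr19:34583359-34583528, plus strand: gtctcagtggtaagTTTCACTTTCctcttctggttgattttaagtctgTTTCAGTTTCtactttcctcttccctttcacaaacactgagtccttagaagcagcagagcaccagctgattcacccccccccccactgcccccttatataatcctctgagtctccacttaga
Bst2, chr8:71537473-71537642, minus strand: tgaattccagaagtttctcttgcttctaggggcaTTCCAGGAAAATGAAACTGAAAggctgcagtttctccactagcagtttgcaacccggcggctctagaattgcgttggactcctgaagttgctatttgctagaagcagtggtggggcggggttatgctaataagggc
Oasl2, chr5:114896764-114896933, plus strand: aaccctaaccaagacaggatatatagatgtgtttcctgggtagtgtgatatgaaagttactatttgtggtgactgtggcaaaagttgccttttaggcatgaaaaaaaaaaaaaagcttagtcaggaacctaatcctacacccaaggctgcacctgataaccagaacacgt
The Isg15 promoter held 3 overlapping ISRE matches in 1 unbroken run, from base -78 to base -57 before the start. The promoters of Ifit1 and Ifit3 each held 2 separate ISRE matches, at -104 to -95 and -85 to -76 in Ifit1 and at -156 to -147 and -122 to -113 in Ifit3. In Bst2 a GAS match at -136 to -128 ran into 2 overlapping ISRE matches that ended at -115. Oasl2 held no match of either kind in its window, nor did Xaf1, another effector with a high ratio.

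The second set is shown because these are interferon-gamma GTPases, which attack parasite vacuoles, with a high and a low ratio.
Igtp, chr11:58199386-58199555, plus strand: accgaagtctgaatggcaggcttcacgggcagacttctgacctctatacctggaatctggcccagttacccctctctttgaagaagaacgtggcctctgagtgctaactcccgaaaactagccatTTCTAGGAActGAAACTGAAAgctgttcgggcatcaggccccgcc
Irgm1, chr11:48871421-48871590, minus strand: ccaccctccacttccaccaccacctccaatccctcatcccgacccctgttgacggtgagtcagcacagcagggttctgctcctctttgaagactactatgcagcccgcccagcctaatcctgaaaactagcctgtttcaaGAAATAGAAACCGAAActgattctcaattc
Igtp carried a GAS match at -45 to -37 and an ISRE match at -34 to -25, 2 bases apart. Irgm1 carried 2 overlapping ISRE matches from -30 to -15 and no GAS match in the window.

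The third set is shown because these effectors were not higher in supportive ISEMFs.
Rsad2, chr12:26456453-26456622, minus strand: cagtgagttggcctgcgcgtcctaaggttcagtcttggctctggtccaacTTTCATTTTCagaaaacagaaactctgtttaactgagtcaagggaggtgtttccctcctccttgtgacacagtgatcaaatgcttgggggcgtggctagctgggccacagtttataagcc
Ifit2, chr19:34550524-34550693, plus strand: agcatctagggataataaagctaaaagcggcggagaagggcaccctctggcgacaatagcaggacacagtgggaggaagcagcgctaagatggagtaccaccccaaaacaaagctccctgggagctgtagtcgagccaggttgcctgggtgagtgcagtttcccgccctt
Rsad2 held 1 ISRE match at -120 to -111. Ifit2 held no match in the stretch shown, which comes from the first of its 2 windows. A GAS match lay further upstream in that window, at -241 to -233, and the other window held no ISRE or GAS match.

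The ISRE letters were present in the promoters of 14 of the 25 matched members (56.0%), against 3.99% of the 27025 genes with a promoter in the table. Those members were Isg15, Ifit1, Ifit3, Oas1a, Oas3, Bst2, Rsad2, Ifih1, Ddx58, Stat2, Igtp, Irgm1, Gbp2 and Gbp3. By role, the letters were found in 7 of 15 type I effectors, 2 of 2 sensors, 1 of 4 transcription factors and 4 of 4 GTPases. The 22 matches lay upstream of the start alone in 12 of the 14 genes, and in Ifih1 and Ddx58 they lay downstream of it. The GAS letters were present in Ifit2, Ifi35, Oas1a, Bst2, Irf1 and Igtp, which is 6 of 25 (24.0%), against 9.55% of all genes in the table. A match is a description of the letters and not a bound site. With the members picked as interferon-stimulated genes, a high ISRE share could be expected beforehand and says nothing about these libraries.

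Members with and without the ISRE letters overlapped in their ratios between the libraries. Beside the counts that follow, 7.68% of all protein-coding genes with a read were 2-fold or more higher in supportive ISEMFs. The 14 with the letters had log2 ratios from -0.62 (Rsad2) to 5.28 (Isg15), with a median of 1.92, and 11 of them were 2-fold or more higher in supportive ISEMFs. The 11 without the letters ran from -0.56 (Cmpk2) to 3.09 (Oasl2), with a median of 1.32, and 7 were 2-fold or more higher. The plot of matches by distance from the start shows members with high and with low ratios on both sides of this division.

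**Figure D1:**
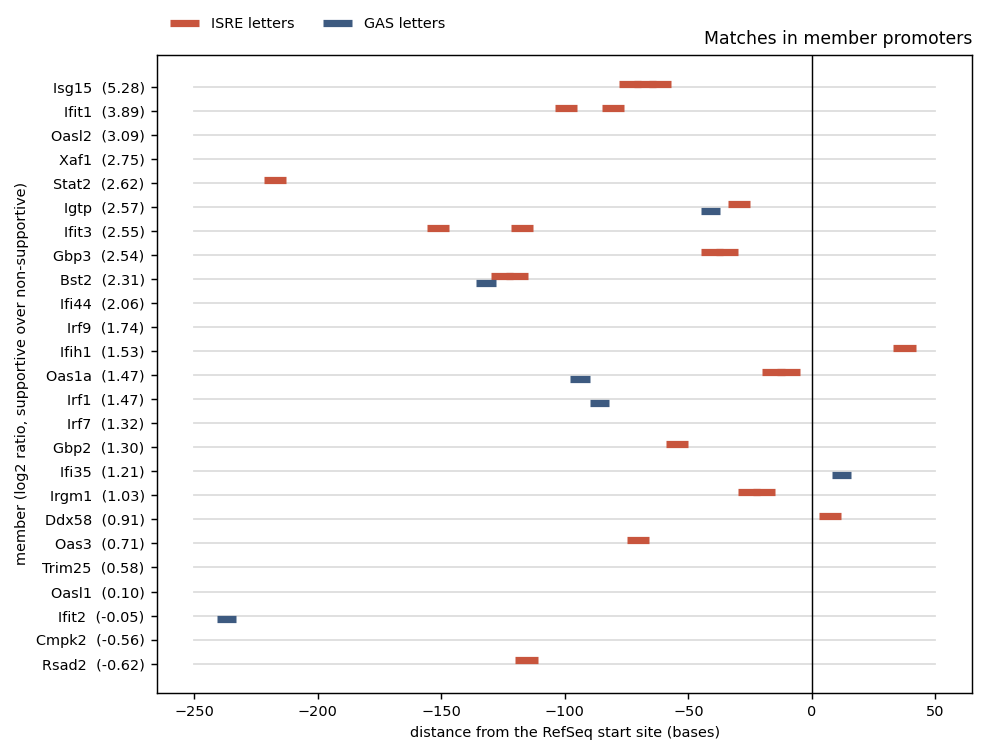
Positions of the ISRE letters (orange) and GAS letters (blue) in the RefSeq promoter windows of 25 members, in bases from the start site (x axis), with members ordered by log2 ratio (y axis, in brackets). ISRE letters occur in 14 of the 25 members, at both ends of the order.

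All 35 members had reads in at least 1 library. Of these, 26 (74.3%) were 2-fold or more higher in supportive ISEMFs and 0 were 2-fold lower, with 9 in between. Among the 16400 protein-coding genes with a read, 7.68% were 2-fold higher and 8.41% were 2-fold lower. A level of at least 1 RPKM was found for 23 members, all 23 of them in supportive ISEMFs and 9 in non-supportive ISEMFs. Of these 23 members, 20 (87.0%) were 2-fold higher and 0 lower, against 9.01% higher and 9.27% lower of the 10086 genes of any type at that level. Each of the 23 was at that level in supportive ISEMFs, so the minimum itself favours the higher side and their share supports nothing. The median log2 ratio of the members was 1.66, beside -0.05 over the protein-coding genes with a read. The medians of the members' lower and upper counting bounds were 1.41 and 1.81, which do not form an interval of the median.

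The members summed to 118 RPKM in supportive ISEMFs and 33.8 in non-supportive ISEMFs, from 39977 and 14609 reads. The ratio was above 1 for 30 members, with an interval wholly above 1 for 29. The share of all genes with such an interval was not computed, so this count is not a result about the members. For Rsad2 and Cmpk2 the interval lay wholly below 1, and for Ifit2, Oasl1, Mx1 and Zbp1 it included 1. On the log2 scale with the pseudocount, 14 members were 4-fold or more higher, beside 2.40% of the protein-coding genes with a read. An 8-fold difference was reached by 6 members, namely Isg15, Ifit1, Rtp4, Oasl2, Usp18 and Iigp1. The 8-fold share over all genes was not computed. The members nearest the 2-fold line were Irgm1, just above it at a log2 ratio of 1.03, and Ddx58, just below it at 0.91. A bulk library cannot tell a larger share of cells with these transcripts from more transcript in each cell.

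**Figure D2:**
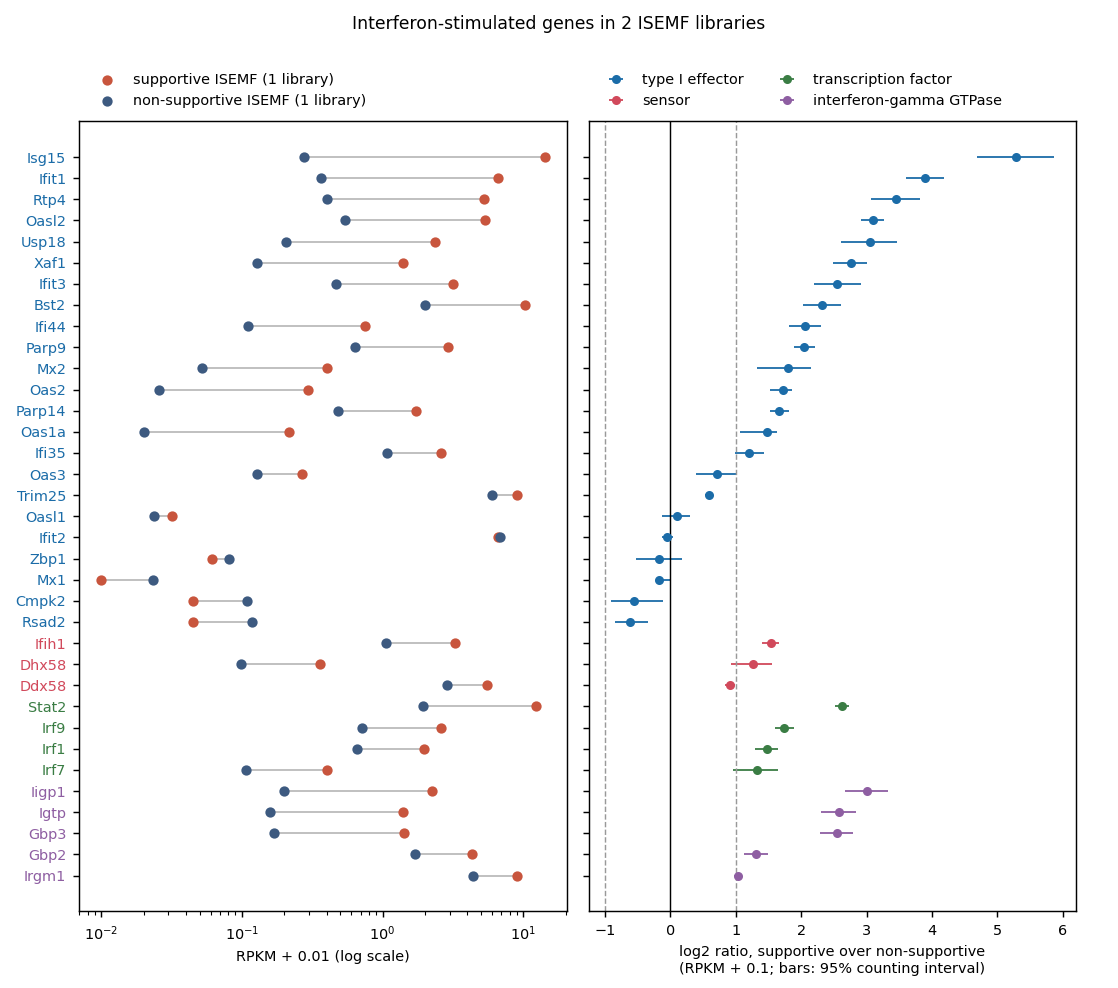
Left, RPKM + 0.01 (log scale) of each of the 35 members in the supportive (orange) and the non-supportive (blue) library. Right, log2 ratio of supportive over non-supportive with the 95% counting interval, coloured by role, where dashed lines mark 2-fold. For 26 members the point lies right of the upper dashed line, and none lies left of the lower one.

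**Figure D3:**
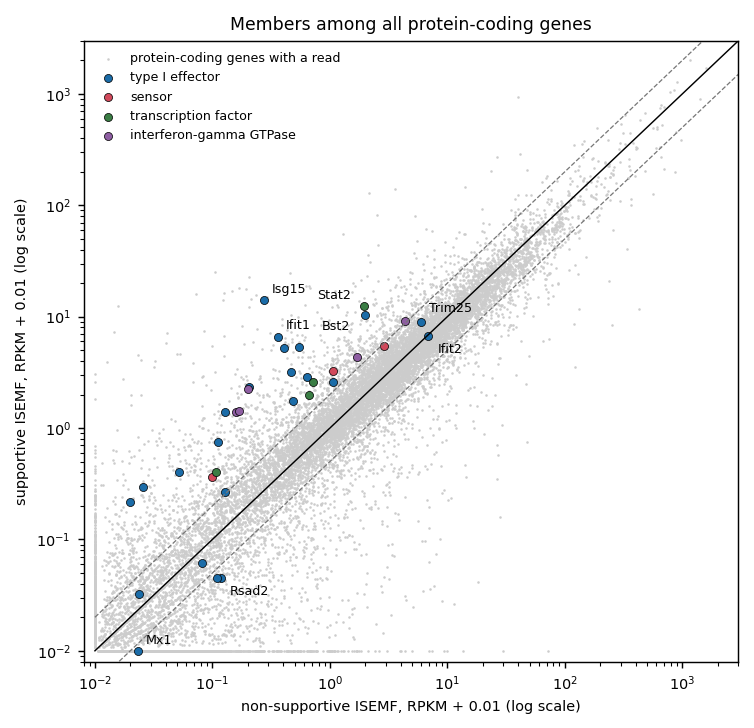
RPKM + 0.01 of protein-coding genes with a read in the non-supportive (x axis) and supportive (y axis) library, both on log scales, with equality (solid) and 2-fold (dashed) lines. Most members lie above the upper dashed line, among them Isg15 at 14.2 against 0.267, while Ifit2 lies on the line of equality and Rsad2 below it.

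Isg15 had the highest ratio of any member, and the genes of the enzymes that attach and remove its protein differed in the same direction. Isg15 (ENSMUSG00000035692, chromosome 4 of mm9 from 155573533 to 155574927, minus strand, 2 exon blocks) had 766 reads and 14.2 RPKM in supportive ISEMFs. In non-supportive ISEMFs it had 14 reads and 0.267 RPKM. The ratio was 53.2 (31.5 to 97.7), and the gene stood at rank 1643 of the protein-coding genes by RPKM in the supportive and at rank 10825 in the non-supportive library. Its removal enzyme Usp18, which takes ISG15 off proteins and dampens the receptor, had 297 reads against 24, a ratio of 12.0 (7.93 to 19.1). The enzymes that attach ISG15 are no members but belong to the same reaction, and all 3 were higher in supportive ISEMFs. Uba7, the activating enzyme, had 1.21 RPKM against 0.162, Ube2l6, the conjugating enzyme, 1.82 against 0.643, and Herc6, the mouse ligase, 4.66 against 1.20. Isg15 thus had a larger ratio than the enzymes of its cycle, whose log2 ratios ran from 1.37 to 3.05.

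The Ifit genes, of which Ifit1 encodes a protein that binds viral RNA lacking the host cap methylation, differed among themselves although they lie side by side. Within 99.3 kb of chromosome 19 of mm9, from 34625184 to 34724499, stand Ifit2, Ifit3, Gm14446, I830012O16Rik and Ifit1. Ifit1 had 1257 reads (RPKM 6.62) in supportive ISEMFs and 65 (RPKM 0.352) in non-supportive ISEMFs, a ratio of 18.8 (14.6 to 24.5). Ifit3 had 393 reads against 55, a ratio of 6.94 (5.23 to 9.38). Ifit2, by contrast, was level between the libraries. It had 1926 reads and 6.65 RPKM in the supportive and 1933 reads and 6.87 RPKM in non-supportive ISEMFs, and the log2 ratio of -0.05 became 0.01 with TMM factors, 0.03 after centring and 0.07 with protein-coding reads as the library size. Its ratio of 0.968 (0.909 to 1.03) stood beside a neighbour, Ifit3, that begins 7111 bases further on. In non-supportive ISEMFs Ifit2 had the highest RPKM of the 35 members. I830012O16Rik, a near copy of Ifit3, had 342 reads against 49 and Gm14446 had 37 against 18. Since only reads with a unique place were kept, the split of reads between such copies is uncertain.

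Active enzymes of the OAS family make 2′-5′ oligoadenylate from ATP when they meet double-stranded RNA, which leads to the decay of RNA in the cell. Not every protein of the family has this activity. The genes of the family ranged widely, both in level and in ratio. Oasl2, an OAS-like protein with a ubiquitin-like tail, had 2319 reads (RPKM 5.30) in supportive ISEMFs against 227 (RPKM 0.534), a ratio of 9.93 (8.66 to 11.4). Oasl1, 11005 bases further along chromosome 5, had 10 reads against 6, and its ratio of 1.62 (0.533 to 5.42) was not distinguishable from 1 at this depth. The other OAS genes were low in both libraries but had more reads in the supportive one. Oas2 had 166 reads against 9, a ratio of 17.9 (9.22 to 39.9), and Oas1a had 42 against 2, a ratio of 20.4 (5.31 to 174) that rests on those 2 reads. Oas3 had 109 against 49, a ratio of 2.16 (1.53 to 3.09), although its log2 ratio of 0.71 with the pseudocount stayed under 2-fold. Oas1a has near-identical copies beside it, of which Oas1g had 6 reads against 0.

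Bst2, Rtp4, Xaf1, Ifi44 and Ifi35 were each 2-fold or more higher in supportive ISEMFs. Bst2 (tetherin) had 559 reads and 10.2 RPKM in supportive ISEMFs against 105 and 1.98, a ratio of 5.17 (4.19 to 6.44). Rtp4, an interferon-inducible chaperone of membrane receptors, had 5.27 RPKM against 0.394, a ratio of 13.4 (9.81 to 18.7). Xaf1, a promoter of apoptosis, had 560 reads against 47, a ratio of 11.6 (8.59 to 15.9). These ratios lay well beyond counting error. Ifi44 had 0.741 RPKM against 0.101, and Ifi35, a partner of Nmi, 2.58 against 1.06, with a ratio of 2.43 (2.07 to 2.87) for the latter. Of the bases of Ifi35's exons 16.8% are shared with Gm11626 in the annotation.

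The ADP-ribosyltransferases Parp9 and Parp14 had ratios close to each other. Parp9, which works with the ubiquitin ligase Dtx3l, had 1422 reads against 298 and a ratio of 4.64 (4.09 to 5.27). Parp14 had 1359 against 364 and a ratio of 3.63 (3.23 to 4.08). Dtx3l, no member, lies between them on chromosome 16 and overlaps Parp9 by 682 bases, with 5.13 RPKM against 1.46 and a log2 ratio of 1.74. The exon overlap covers 9.40% of Parp9. Trim25, the ubiquitin ligase that acts on the sensor RIG-I, was high in both libraries, with 5686 reads and 9.03 RPKM in the supportive and 3669 reads and 6.00 RPKM in non-supportive ISEMFs. Its ratio of 1.51 (1.44 to 1.57) lay above 1 but under 2-fold.

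The Mx genes encode dynamin-like GTPases that block viral replication, and Mx1 is known to be defective in C57BL/6 mice. Mx2 had 68 reads against 7, a ratio of 9.44 (4.34 to 24.4). Mx1, 73175 bases away on chromosome 16, had 0 reads against 5, and the counting interval of its ratio reached 1.06. Zbp1, a sensor of Z-form nucleic acid, had 17 reads against 23. Thus, in Mx1 and Zbp1, a difference was not detectable at this depth.

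Rsad2 and Cmpk2 were the only members with an interval wholly on the side of the non-supportive library. Rsad2 encodes viperin, which makes a chain-terminating nucleotide from CTP, and Cmpk2 encodes the kinase that supplies its substrate. The genes lie on opposite strands of chromosome 12, within 37.1 kb and 12751 bases apart. Rsad2 had 19 reads and 0.035 RPKM in supportive ISEMFs against 57 reads and 0.107, which is 3.09-fold lower (1.81 to 5.50). Cmpk2 had 8 reads against 22, which is 2.83-fold lower (1.21 to 7.35). Both were under 1 RPKM in both libraries, so with the pseudocount their log2 ratios were -0.62 and -0.56.

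The 3 sensors, RNA helicases of one family, were all higher in supportive ISEMFs. Ifih1 (MDA5), which detects long double-stranded RNA, had 1808 reads (RPKM 3.24) against 572 (RPKM 1.05), a ratio of 3.07 (2.79 to 3.38). Ddx58 (RIG-I), which detects 5′-triphosphate ends, had 4123 reads (RPKM 5.48) against 2092 (RPKM 2.86), a ratio of 1.92 (1.82 to 2.02). Dhx58 (LGP2), which modulates the other helicases, had 126 reads against 31, a ratio of 3.95 (2.65 to 6.06). Ddx58 thus had the highest level and the smallest ratio of the 3. Their median log2 ratio was 1.26.

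The 4 transcription factors were all more than 2-fold higher in supportive ISEMFs, with a median log2 ratio of 1.61. Stat2, on chromosome 10 of mm9 from 127707629 to 127729905, had 4790 reads and 12.4 RPKM in supportive ISEMFs. In non-supportive ISEMFs it had 726 reads and 1.93 RPKM, a ratio of 6.41 (5.93 to 6.94). Irf9, the DNA-binding partner of STAT2 in ISGF3, had 1538 reads against 406, a ratio of 3.68 (3.30 to 4.12). Irf1, which also answers to interferon-gamma, had 823 reads against 263, a ratio of 3.04 (2.64 to 3.51). Irf7, the factor that amplifies the IFN-α genes, was low in both, with 116 reads against 28 and a ratio of 4.03 (2.65 to 6.32).

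The 5 interferon-gamma GTPases were also all 2-fold or more higher in supportive ISEMFs, and with a median log2 ratio of 2.54 they had the highest median of the 4 roles. The type I effectors had a median of 1.73 and ranged more widely, from -0.62 to 5.28. Iigp1 (Irga6) had 495 reads against 41, a ratio of 11.7 (8.52 to 16.6). Igtp (Irgm3) had 487 against 51, a ratio of 9.28 (6.95 to 12.6). Irgm1, which regulates the other immunity-related GTPases, had the highest level and the smallest ratio, with 5857 reads (RPKM 9.05) against 2750 (RPKM 4.37) and a ratio of 2.07 (1.98 to 2.17). The genes of the guanylate-binding proteins Gbp3 and Gbp2 lie 47392 bases apart on chromosome 3. Gbp3 had 548 reads against 60, a ratio of 8.88 (6.79 to 11.8), and Gbp2 had 816 against 310, a ratio of 2.56 (2.24 to 2.92). Gbp and immunity-related GTPase genes have close copies, so reads that fit more than 1 of them were left out. With 3 to 23 genes per role and 1 library per population, the medians of the roles are not shown to differ. With a mean level of at least 1 RPKM the order changed, at 2.43 for the 12 effectors left and 1.30 for the 3 GTPases left. That minimum can be passed through the supportive library alone, so this order supports nothing either.

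The pathway upstream of the members had almost no ligand transcript in either library. Of 21 interferon genes listed, which cover IFN-α, IFN-β, IFN-γ and the IFN-λ genes Il28a and Il28b, 20 had 0 reads in both libraries. Ifnk had 1 read in each. A count of 0 allows up to 3 reads, so a transcript below that level was not detectable at this depth.

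The receptors were present in both libraries and were within 2-fold on the log2 scale with the pseudocount. Ifnar1 had 2.84 RPKM in the supportive and 2.78 in non-supportive ISEMFs, a ratio of 1.02 (0.958 to 1.09). Ifnar2 had 6.84 against 5.64 and Ifngr1 8.46 against 7.47. The largest difference among the expressed receptors was that of Ifngr2, with 9.71 against 5.58 and a ratio of 1.74 (1.63 to 1.86). The IFN-λ receptor chain Il28ra was low, with 30 reads against 10 and a ratio of 2.92 (1.39 to 6.69) before the pseudocount, and its partner Il10rb had 0.942 RPKM against 1.17. The kinases were close to level too, with Jak1 at 19.8 against 25.9, Jak2 at 8.57 against 9.10 and Tyk2 at 0.947 against 0.724. Summed over these 9 receptors and kinases, the RPKM was 58.2 against 58.3. Stat3, which mainly serves cytokines of the IL-6 family, had 11.5 RPKM against 7.83. The feedback inhibitors were also within 2-fold on that scale, with Socs1 at 5 reads against 2, Socs3 at 0.645 RPKM against 0.344, Pias1 at 9.71 against 6.45, Ptpn11 at 5.52 against 8.69 and Ptpn6 at 0.175 against 0.225.

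Genes of the induction arm, through which nucleic acid leads to interferon, were not 2-fold higher in supportive ISEMFs for any of the 22 listed. Their median log2 ratio was -0.23. None higher and 2 lower of 22 stands beside 7.68% and 8.41% over all protein-coding genes with a read, and Trex1 had no read, with all of its exon bases shared with Atrip. The 2 that were 2-fold lower were Rnaseh2a, a subunit of the nuclease that clears RNA from DNA hybrids, at 0.572 RPKM against 1.85, and Tlr7, the endosomal receptor of single-stranded RNA, at 1 read against 126 (named after its values were seen). The shared kinase Tbk1 had 12.3 RPKM against 11.7 and its target Irf3 1.05 against 1.32 (both named after their values were seen). The adaptor of the RNA helicases, Mavs, had 0.909 against 1.77, and Tmem173 (STING) had 4.19 against 5.63 (likewise). Tbk1, Irf3, Mavs and Tmem173 all lay within 2-fold.

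Of 64 other interferon-inducible genes counted in the table, 32 (50%) were 2-fold or more higher in supportive ISEMFs, 5 lower and 27 in between (3 of these without a read), beside the 7.68% and 8.41% over all protein-coding genes, with a median log2 ratio of 0.96. The highest level was that of Ifitm3, which blocks the fusion of virus with endosomes, at 354 RPKM against 140 and a ratio of 2.53 (2.45 to 2.60). Eif2ak2 (PKR), the kinase that halts translation, had 23.7 against 11.1, and the galectin-3 binding protein Lgals3bp had 11.9 against 3.06. The largest ratios among genes at 1 RPKM or more were those of Slfn8, at 1.62 against 0.103, and Trim30a, at 3.41 against 0.318. Higher by 2-fold at that level were also Ifi27l1, Isg20, Trim21, Sp100, Parp12, Rnf213, Nmi, Tor3a, Slfn9 and Ifi204, with ratios from 2.28 (Ifi27l1) to 4.49 (Sp100). The GTPase neighbours of the members behaved unevenly. Irgm2, 7436 bases from Igtp, had 4.39 against 0.723 and Gbp7, beside Gbp3, had 3.16 against 0.695. Ifi47, in the cluster of Irgm1, went the other way at 3.24 against 5.08, a log2 ratio of -0.63 (named after its values were seen). Of the genes at this level, Ly6e (2.82 against 6.56) and Pyhin1 (0 reads against 281) were 2-fold lower in supportive ISEMFs, and below that level Slfn2, Slfn5 and Gbp9 (3 reads against 63), named after their values were seen.

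**Figure D4:**
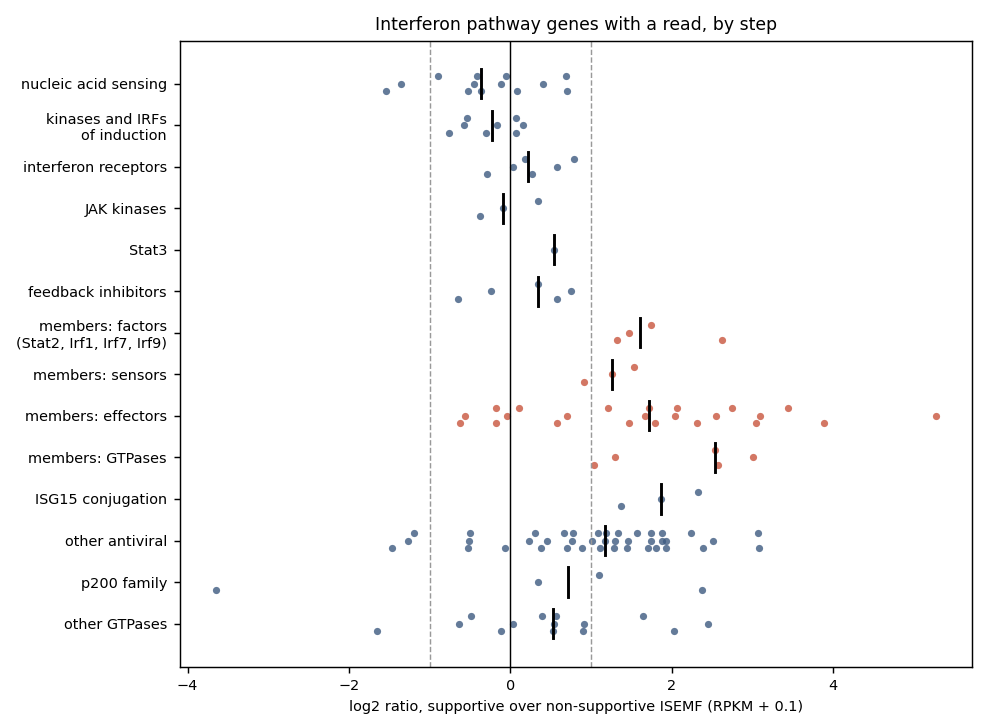
Log2 ratio of supportive over non-supportive ISEMFs (x axis) of interferon pathway genes with a read, by step (y axis), where each point is a gene, members are orange, black bars are medians and dashed lines mark 2-fold. The receptors and kinases sit within 2-fold, while the members' medians run from 1.26 (sensors) to 2.54 (GTPases).

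Transcripts of macrophages differed in the opposite direction to most members. All 13 macrophage markers were 2-fold or more lower in supportive ISEMFs, where they summed to 6.98 RPKM against 127 in non-supportive ISEMFs. Of the 13, Ptprc, Emr1, Itgam, Tyrobp and Aif1 had 0 reads in supportive ISEMFs, and Tyrobp had 1174 reads (RPKM 30.0) in the other. The other 8 were detected in both libraries. Lyz2, the lysozyme of macrophages, made most of the sum, at 6.31 RPKM in supportive ISEMFs against 72.7. Cd68 had 51 reads against 715, Csf1r 25 against 343, Cd14 10 against 108, Fcer1g 3 against 387, Mrc1 10 against 710, Laptm5 4 against 608 and Cx3cr1 1 against 35. The library with the higher members was thus the one with the lower macrophage markers. Their part in the values of Rsad2, Cmpk2 or any other member was not tested. Markers of lymphocytes and dendritic cells summed to 0.066 RPKM in the supportive and 0.133 in non-supportive ISEMFs, and those of endothelium to 0.131 and 0.209. Those of epithelium summed to 0.530 and 3.28, of which Krt20 made 0.080 and 3.13. Genes within these lists went both ways. The epithelial marker Cdh1 was higher in supportive ISEMFs, at 0.427 RPKM against 0.050. Of the endothelial markers, Tek had 65 reads against 2 and Kdr 2 against 88 (named after their values were seen, like Cdh1). Cdx2 had 0 reads in both libraries.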

How the data were processed

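Total RNA of 1 culture of supportive and 1 of non-supportive ISEMFs was made into TruSeq libraries and sequenced as single-end reads. The authors aligned the reads to mm9 with TopHat (TopHat2 2.0.4 in the submitters' processing notes) using Ensembl genes, kept unique hits and counted them with HTSeq 0.5.4p3. Reads on more than 1 gene were left out, and the kit does not mark strand, so overlapping genes and near-identical copies are uncertain. The authors deposited whole read counts per gene and RPKM, which are those counts per exon length and library size (recomputed for 100% of values). Their log2 ratio, p-value and localization columns were not used, nor was a shorter table of Wnt pathway genes.

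Log2 ratios were computed from the deposited RPKM with a pseudocount of 0.1, and genes past 2-fold were counted. Intervals are exact at 95%. With 1 library per population no test was run. All 37309 identifiers were found in the mm9 annotation (GENCODE vM1), which gave the coordinates, exon blocks and exon overlaps. Only 9 of the 35 members have the same exon length there as in the deposited table. The exon blocks and overlaps given may therefore differ from those of the gene models behind the counts. The members and lists were chosen with earlier results of these data known. The text names all members, the interferon ligand, receptor and JAK-STAT genes with a read, and, of other lists, genes with 1 RPKM or more that were past 2-fold, together with defining markers. Genes outside this rule were named after their values were seen. Of the genes listed, 2 are not reported here and are left out of the counts of their lists, so these counts do not cover every gene of the pathway. Alternatives were pseudocounts of 1 and 0.001, TMM factors (edgeR 4.0.16), size factors (DESeq2 1.42.0), protein-coding reads as the library size, centring, minimum levels, a 4-fold threshold and other motif letters. The 2-fold call and the intervals were tested on simulated counts with counting error only, for protein-coding genes with 1 RPKM or more in either library. The 12 members under that level and the promoter step were not covered. Python 3.11.15, pandas 2.3.3, scipy 1.17.1, matplotlib 3.10.9 and R 4.3.3 were used.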

Additional observations from a re-analysis of the deposited data

How the results depend on the processing

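No paired analysis was possible because there is 1 library per population, and leaving out a replicate was not possible either. The direction of the members' median was the same in all alternatives run, and the scaling of the libraries (TMM, size factors, protein-coding reads, centring) left the count of members 2-fold higher at 26 or 27, although protein-coding reads shifted the median of expressed genes by 0.116. With a pseudocount of 1, 15 members were higher (3.35% of protein-coding genes) and the median log2 ratio was 0.88 for the members, 0.66 for the type I effectors, 0.75 for the sensors, 0.96 for the transcription factors and 1.05 for the GTPases. With 0.001, 3 members (Mx1, Rsad2 and Cmpk2) were 2-fold lower, where 19.9% of protein-coding genes were, and the same medians were 1.998, 2.37, 1.62, 1.94 and 3.14.

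With 1 RPKM or more in either library the medians of the 23 members and 13 effectors left were 2.31 and 2.55. With a mean RPKM of at least 1, 17 of 20 members were higher, beside 8.40% of the protein-coding genes at that level. The medians of the 20 members, 12 effectors and 3 GTPases left were 1.90, 2.43 and 1.30. A gene can pass either minimum through the supportive library alone, so these shares and medians support nothing. At 4-fold, 14 members were higher (2.40% of genes). Of the 15 receptor and JAK-STAT genes counted, 2 were past 2-fold with a pseudocount of 0.001. Induction arm genes past 2-fold numbered 0 of 22 with a pseudocount of 1, 5 of 22 with 0.001, 1 of 12 under either minimum level and 0 of 22 at 4-fold. Other interferon-inducible genes higher in supportive ISEMFs numbered 15 of 64 with a pseudocount of 1, 18 of 25 with a mean RPKM of at least 1 and 9 of 64 at 4-fold. Those lower numbered 1 of 64 with a pseudocount of 1, 8 of 64 with 0.001, 2 of 30 with 1 RPKM or more, 1 of 25 with a mean of at least 1 and 1 of 64 at 4-fold. Beside the counts of these lists, 3.35% of protein-coding genes with a read were higher and 3.45% lower with a pseudocount of 1. With 0.001 the shares were 15.6% and 19.9%, and at 4-fold 2.40% and 2.74%. They were 8.40% and 8.02% with a mean of at least 1, and 9.01% and 9.27% of genes of any type with 1 RPKM or more. The longer ISRE letters GAAANNGAAACT were found in 8 member promoters (32.0%, against 0.303% of genes). A member with few reads in both libraries is pulled towards a ratio of 1 by a larger pseudocount by construction. Depth limits Mx1, Oasl1 and Zbp1, and the missing replicates limit every ratio.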

Other observations

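Of 18 interferon-inducible chemokine and antigen presentation genes listed, 3 were 2-fold or more higher in supportive ISEMFs (Tapbp, Tap1 and Psmb8), 2 were lower (Cxcl10 and H2-Ab1) and 13 lay in between, 4 of these without a read, beside 7.68% higher and 8.41% lower over all protein-coding genes with a read. Of the 14 with a read, 12 had a ratio above 1, and the counting interval lay wholly above 1 for 10 and wholly below it for 2. The share of all genes with such intervals was not computed, so these counts are not a result about the list. Cxcl10, which draws T cells to sites of infection, had 6 reads in supportive ISEMFs and 47 in non-supportive ISEMFs, and Cxcl9 and Cxcl11 had 0 in both. Tapbp, which loads peptide on MHC class I, had 4.89 RPKM against 1.95. The class I genes were nearer to level, with B2m at 445 against 360, H2-K1 at 3.39 against 2.20 and H2-D1 at 4.37 against 3.67. The immunoproteasome subunit Psmb8 had 0.731 against 0.232. Psmb9 had 0 reads in both libraries, but nearly all of its exon bases are shared with other annotated genes, and reads on more than 1 gene were not counted. All of these except Tapbp were named after their values were seen.

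The Schlafen genes, interferon-inducible genes within 119 kb of chromosome 11 of mm9, were divided. Slfn8 and Slfn9 were higher in supportive ISEMFs, with 633 reads against 39 and 2316 against 792. Slfn2 and Slfn5 at the ends of the cluster were lower, with 33 against 109 and 38 against 145. The p200 genes of chromosome 1, whose proteins bind DNA, were divided as well, with Ifi203 at 409 reads against 28, Ifi204 at 328 against 138 and Pyhin1 at 0 against 281. Slfn2, Slfn5 and Ifi203 were named after their values were seen.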
